A study of Mus musculus with 12 samples.

Results

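A group of 36 genes of glucose uptake, glycolysis, gluconeogenesis and the pentose phosphate pathway were followed across mouse eye organoids. They were taken by name as the transporters and enzymes of these pathways, without the phosphofructokinase step, and all 36 were found among the 54232 gene IDs of the count tables. All 36 also passed the filter on low counts, as 36 of 17721 genes tested. Organoids were grown from embryonic stem cells heterozygous for a GFP knock-in at Rax, an eye field transcription factor, and RNA was collected at day 7. Each of 3 conditions had 4 libraries: LDHi+lactate organoids were given sodium L-lactate (25 mM) beside GNE-140, LDHi organoids were given GNE-140 (20 µM), an inhibitor of lactate dehydrogenase, for 3 days, and control organoids were given neither. The labels add that lactate preceded the inhibitor by 12 h. The line is 1 stem cell line, the organoids hold mixed cell types, and the study describes 4 independent experiments.

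Cells take up glucose through Slc2a (GLUT) carriers, and glycolysis splits it to pyruvate, which lactate dehydrogenase reduces to lactate while restoring NAD+. The pentose phosphate pathway draws on the same glucose 6-phosphate to make NADPH and ribose 5-phosphate, and gluconeogenesis runs glycolysis backwards, with enzymes of its own at some steps. Several steps have isozymes encoded by separate genes with their own tissue preference, such as the enolases Eno1 (widespread), Eno2 (neuron-enriched) and Eno3 (muscle-enriched). Developing retina and pluripotent stem cells are known for strong glycolysis in the presence of oxygen. The comparisons asked how blocking lactate production, and giving lactate back, changed expression.

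Libraries held 29255114 to 42489921 counts in LDHi+lactate, 22174002 to 46881759 in LDHi and 25209097 to 48271386 in control. Replicates 1 and 2, labelled as eye organoid, were deeper (37284585 to 48271386) than replicates 3 and 4 (22174002 to 29919036). The latter are labelled as retina progenitors by cell type and eye organoid by tissue, so results are also given within these sets. Libraries with the same replicate number deviated together in all 3 conditions, so a fit with the number as a block stands beside the main edgeR fit where it changed a call. Values in CPM are counts per 1000000 of the TMM-scaled library total.

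The 3 enolases show how far reads of 50 bases can separate isozymes. Their coding sequences are each 1302 bases long, of which Eno3 shares 76.7% with Eno1 and Eno2 shares 75.1% with Eno1. Coding bases 677 to 726 are printed for the principal GENCODE vM21 transcript of each, because they are the first from base 151 on found in no other gene for any of the 3. Capitals mark bases that differ from Eno1.
Eno1: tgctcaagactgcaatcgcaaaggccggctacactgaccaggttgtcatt
Eno2: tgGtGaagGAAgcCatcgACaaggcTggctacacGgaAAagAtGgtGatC
Eno3: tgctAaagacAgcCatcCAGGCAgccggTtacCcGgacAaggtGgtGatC
Eno2 and Eno3 each differ from Eno1 at 16 of these 50 bases, so a read from this stretch belongs to 1 enolase. Over its whole transcript, Eno1 (chr4:150236721-150248879, plus strand, mm10) had 72.2% of its windows of 50 bases in other genes, mostly in Eno1b, against 0.3% for Eno2 (chr6:124760053-124769673, minus strand) and 0.0% for Eno3 (chr11:70657202-70662513, plus strand).

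LDH inhibition left most of the 36 genes uncalled, as it did most of all genes tested. In LDHi against control organoids, Eno3, Eno2 and the insulin-responsive glucose transporter Slc2a4 (GLUT4) fell, and Pgd, an NADPH-making dehydrogenase of the pentose phosphate pathway, rose. The 3 members that fell stand beside 2.18% of all genes tested, and the 1 that rose beside 0.909% (edgeR, adjusted p under 0.05). With the replicate block the same 3 fell (10.1% of all genes) and 3 rose (9.85% of all genes), Rpe and Taldo1 joining Pgd. The median log2 fold change of the members was 0.08, against 0.01 over all genes, and 28 of 36 members were within 0.5 of no change. Without regard to sign, the median was 0.21 in members and 0.19 over all genes. Before adjustment, 19.4% of members and 16.5% of all genes were below 0.05 in edgeR without the block. In whole organoids, fewer cells of a type and less RNA per cell cannot be told apart.

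**Figure D1:**
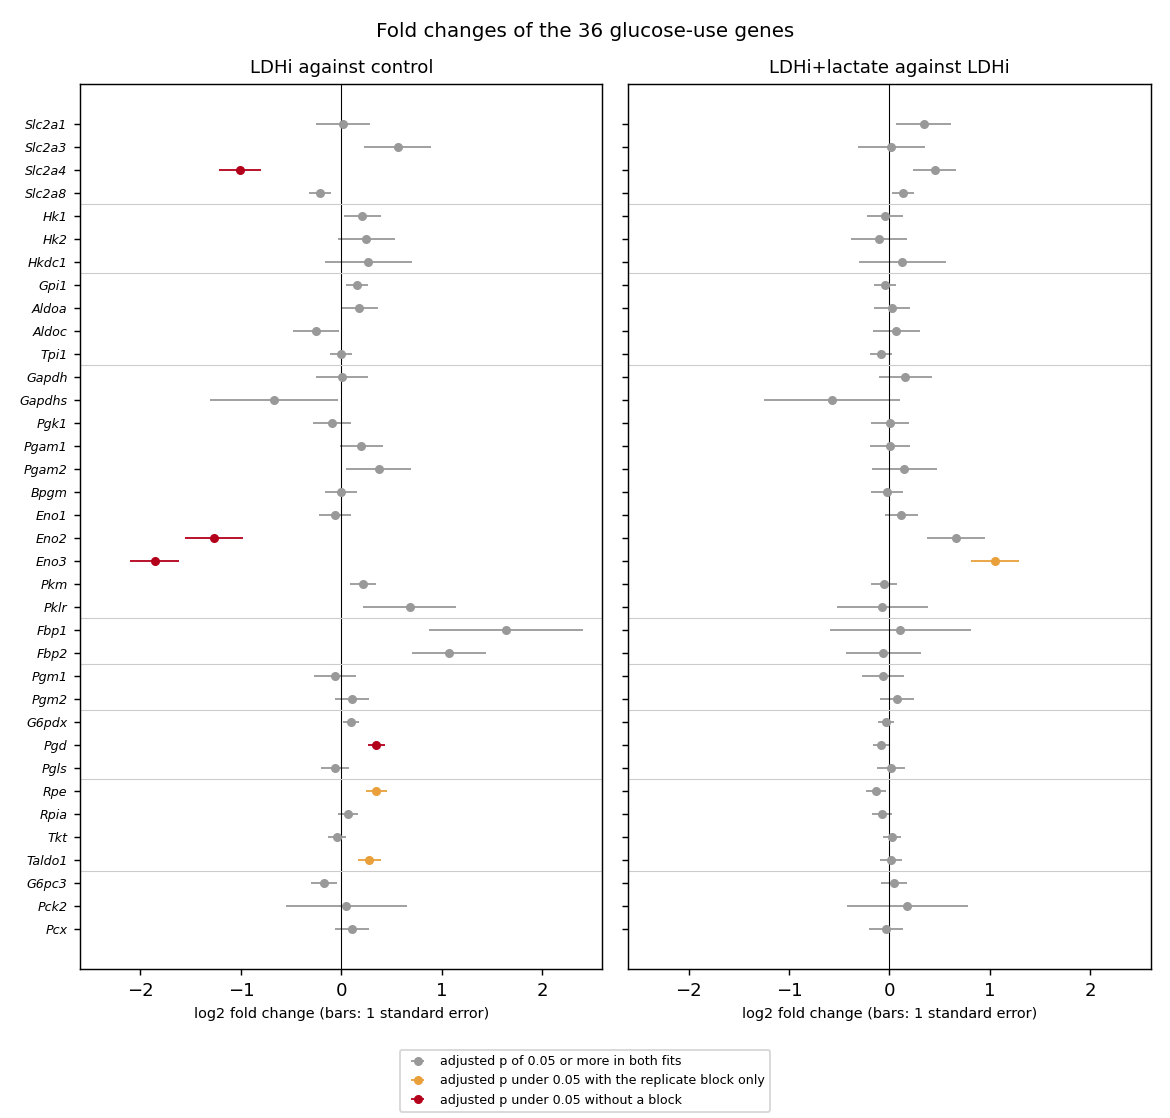
Log2 fold changes (x axis, with 1 standard error) of the 36 genes, in order of pathway step, in LDHi against control (left) and LDHi+lactate against LDHi (right), from the edgeR fit without a block. Slc2a4, Eno2 and Eno3 stand to the left of 0 and Pgd to the right in LDHi against control, and Eno3 stands at 1.05 in LDHi+lactate against LDHi.

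Eno3, the muscle-enriched enolase, changed most among the called members. It had 55.6, 53.8, 82.1 and 44.9 CPM in LDHi+lactate replicates 1 to 4, against 21.8, 24.4, 36.3 and 31.7 CPM in LDHi and 138, 82.3, 118 and 74.8 CPM in control. Every LDHi library was below every LDHi+lactate and every control library, and the LDHi+lactate and control ranges overlapped only through LDHi+lactate replicate 3 and control replicate 4. Its log2 fold change was -1.86 ± 0.24 (SE) in LDHi against control, a fold of 0.276 with an edgeR adjusted p of 0.00907, and the call held without any 1 of the 12 libraries, the highest adjusted p being 0.0334. Within the sets the log2 fold change was -2.26 in replicates 1 and 2 and -1.52 in replicates 3 and 4.

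Eno3 was higher in LDHi+lactate than in LDHi in all 4 replicate numbers. In LDHi+lactate against LDHi the log2 fold change was 1.05 ± 0.24, a fold of 2.07, with an adjusted p of 0.519 in the edgeR fit without a block, 0.0388 with the replicate block and 0.0205 in DESeq2. The blocked call was lost without replicate 1 (adjusted p = 0.0544), 2 (0.176) or 3 (0.272). Against control, LDHi+lactate organoids had a log2 fold change of -0.81, with an adjusted p of 0.331 without the block and 0.0268 with it, and that blocked call was lost without any 1 replicate number (0.0552 to 0.0805).

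Eno2, the neuron-enriched enolase, followed a like order at a lower level. It had 16.0, 12.6, 15.7 and 17.4 CPM in LDHi+lactate, against 12.2, 6.31, 9.07 and 11.4 CPM in LDHi and 31.4, 12.5, 18.5 and 32.0 CPM in control. All LDHi libraries were below all LDHi+lactate and all control libraries, by a narrow margin for LDHi replicate 1, LDHi+lactate replicate 2 and control replicate 2. The log2 fold change in LDHi against control was -1.27 ± 0.29, with an adjusted p of 0.0372 in edgeR and 0.000673 with the block. Without the block, 9 of the 12 libraries could not be left out without losing the call: control replicates 1, 3 and 4, LDHi replicates 2, 3 and 4 and LDHi+lactate replicates 1, 3 and 4, with adjusted p-values of 0.0504 to 0.118. With the block the call held without any 1 replicate number (edgeR adjusted p 0.00164 to 0.00642). With lactate, Eno2 did not pass (log2 fold change 0.66, adjusted p = 1.0 without the block and 0.0883 with it).

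Eno1, the widespread enolase, had 173, 230, 261 and 206 CPM in LDHi+lactate, 157, 179, 256 and 207 CPM in LDHi and 213, 219, 228 and 173 CPM in control. Its ranges overlapped between all conditions, and its log2 fold change in LDHi against control was -0.06 ± 0.16 (edgeR adjusted p = 0.914). The log2 ratio of Eno3 to Eno1 counts averaged -1.90 ± 0.29 in LDHi+lactate, -2.81 ± 0.07 in LDHi and -1.05 ± 0.34 in control (SD, n = 4 each). The 3 conditions did not overlap in this ratio, and each difference reached the smallest p of the two-sided exact permutation test, 0.0286, which is 0.206 after Benjamini-Hochberg adjustment over 36 tests of 12 isozyme ratios. The design could not give an adjusted p under the threshold with so few separated ratios.

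**Figure D2:**
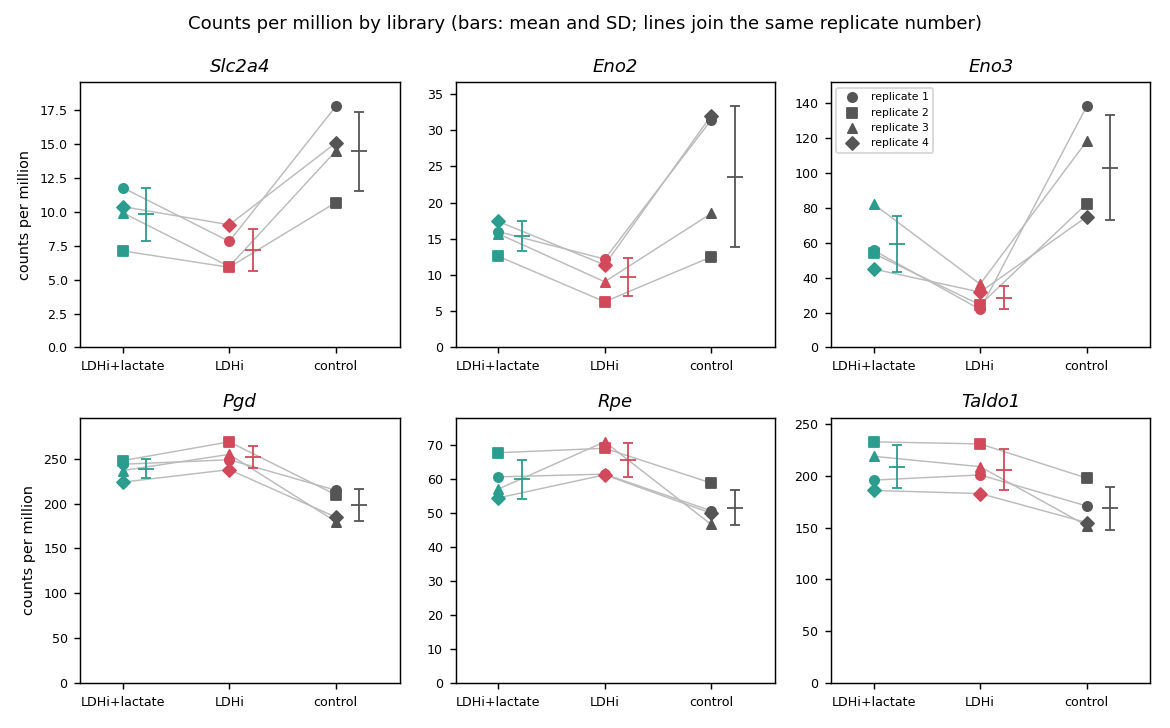
CPM (y axis, from 0) of the 6 members called without or with the replicate block, for each library of LDHi+lactate, LDHi and control. Grey lines join libraries with the same replicate number and bars give mean and SD. All 4 LDHi libraries lie below all control libraries for Slc2a4, Eno2 and Eno3, and above them for Pgd and Rpe.

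The upstream sequence of each enolase is shown because 2 of the 3 genes fell with the inhibitor while Eno1 was not called. Windows hold 250 bases before to 50 bases after the RefSeq start (GRCm38.p6), on the gene's strand. Capitals mark ACGTG or GCGTG on either strand (CACGT or CACGC when read along the gene), the core letters bound by hypoxia-inducible factors, which are known to act on many glycolysis genes. ACGTG and CACGT can overlap each other, and overlapping matches at different bases were counted apart.
Eno1, chr4:150236458-150236757, plus strand: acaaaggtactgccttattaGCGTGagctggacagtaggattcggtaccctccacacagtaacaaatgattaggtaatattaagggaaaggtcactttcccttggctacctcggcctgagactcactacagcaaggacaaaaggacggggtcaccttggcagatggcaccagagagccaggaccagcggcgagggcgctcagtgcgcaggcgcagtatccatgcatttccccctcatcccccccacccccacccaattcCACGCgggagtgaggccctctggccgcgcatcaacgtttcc
Eno2, chr6:124769624-124769923, minus strand: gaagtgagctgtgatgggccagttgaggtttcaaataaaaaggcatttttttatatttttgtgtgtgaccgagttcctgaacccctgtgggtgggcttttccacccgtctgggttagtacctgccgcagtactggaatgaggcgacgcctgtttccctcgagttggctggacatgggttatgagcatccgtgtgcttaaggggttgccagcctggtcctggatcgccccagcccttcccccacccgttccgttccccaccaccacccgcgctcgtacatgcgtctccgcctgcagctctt
Eno3, chr11:70656926-70657225, plus strand: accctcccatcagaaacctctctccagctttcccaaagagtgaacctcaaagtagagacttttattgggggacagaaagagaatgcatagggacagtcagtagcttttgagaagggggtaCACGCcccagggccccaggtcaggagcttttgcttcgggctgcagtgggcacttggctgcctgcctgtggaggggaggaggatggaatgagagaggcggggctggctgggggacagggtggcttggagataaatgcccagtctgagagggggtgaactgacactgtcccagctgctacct
Eno1 held 2 matches, Eno3 held 1 and Eno2 held 0. At least 1 match was found in 23 of the 34 members with a window (67.6%), against 14380 of all 32851 windows of 300 bases (43.8%). Slc2a3 and Slc2a4 had no entry. The windows of all genes were not matched to the members for expression or base content. Whether these letters bear on the shares or on the fold changes was not tested.

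Among the glucose transporters, Slc2a4 (chr11:69942539-69948188, minus strand) was the member called. It had 11.8, 7.13, 9.95 and 10.4 CPM in LDHi+lactate, against 7.83, 5.92, 5.98 and 9.06 CPM in LDHi and 17.8, 10.7, 14.5 and 15.1 CPM in control. All LDHi libraries were below all control libraries, and LDHi+lactate libraries lay between and overlapped both. The log2 fold change in LDHi against control was -1.01 ± 0.21, a fold of 0.496 (edgeR adjusted p = 0.0279), with -1.05 in replicates 1 and 2 and -0.98 in replicates 3 and 4. Leaving out LDHi replicate 2 or 3, or 1 of control replicates 1, 3 and 4, ended the call (0.0524 to 0.0979), and with the block it held without any 1 replicate number. In LDHi+lactate against control the log2 fold change was -0.56, with an adjusted p of 0.434 without the block and 0.0227 with it, a blocked call lost without any 1 replicate number (0.0631 to 0.106).

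The carriers Slc2a1 (GLUT1) and Slc2a3 (GLUT3) made up most transporter counts and were not called. Slc2a1 had 629, 908, 1340 and 1020 CPM in LDHi+lactate, 512, 493, 1180 and 890 CPM in LDHi and 717, 780, 841 and 693 CPM in control. LDHi was below control in replicates 1 and 2 and above it in replicates 3 and 4, with log2 fold changes of -0.58 and 0.42 in these sets (0.02 over all and -0.08 with the block, adjusted p = 0.988 without it). Slc2a3 had 679, 1260, 1810 and 1240 CPM in LDHi+lactate, 722, 886, 1960 and 1360 CPM in LDHi and 622, 1010, 1000 and 699 CPM in control. It too split by set, with log2 fold changes of -0.03 and 0.94 in LDHi against control (0.56 over all, edgeR adjusted p = 0.456 without the block and 0.0686 with it, and 0.0133 in DESeq2 with the block).

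The balance of these 2 carriers was steadier across sets than either level. The log2 ratio of Slc2a3 to Slc2a1 counts averaged 0.33 ± 0.17 in LDHi+lactate, 0.67 ± 0.15 in LDHi and 0.11 ± 0.26 in control (SD, n = 4 each). LDHi was above control in all 4 replicate numbers, by 0.56 on average (SD over the 4 differences 0.11), with 0.58 in replicates 1 and 2 and 0.54 in replicates 3 and 4. LDHi+lactate was below LDHi in all 4, by -0.34 on average (SD 0.04). Neither comparison overlapped between conditions, each with a two-sided exact permutation p of 0.0286 and an adjusted p of 0.206. Per length of exon, Slc2a3 made 37.1% ± 2.89 of the reads of the 4 carriers in LDHi+lactate, 42.7% ± 2.64 in LDHi and 33.4% ± 4.10 in control. Per window of 50 bases found in no other gene, its shares were 49.3% ± 3.20, 55.1% ± 2.72 and 45.1% ± 4.63. Slc2a1 made 55.4% in LDHi per length of exon and 42.9% per such window, so which carrier led in LDHi turned on the length. Per longest transcript it made 53.6% in LDHi. Windows were taken from the principal transcript alone. Slc2a3 had 7245 exon bases and 3910 such windows, with 0.0% of its windows shared, and Slc2a1 had 3506 and 3155, with 1.7% shared. Slc2a8, an intracellular carrier, had 14.3 to 18.3 CPM over all libraries and was not called (log2 fold change -0.21 in LDHi against control, adjusted p = 0.358).

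**Figure D3:**
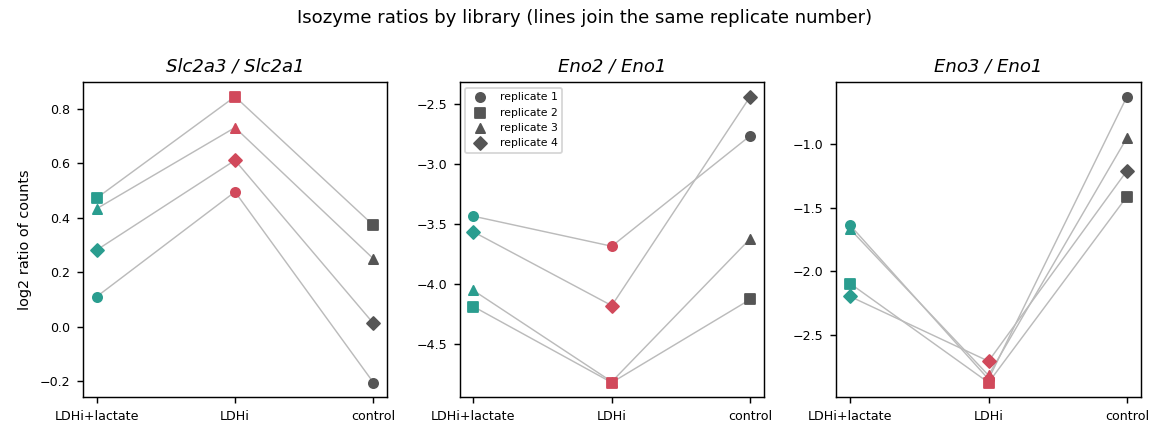
Log2 ratio of counts (y axis) of Slc2a3 to Slc2a1, Eno2 to Eno1 and Eno3 to Eno1 in each library of LDHi+lactate, LDHi and control, with lines joining the same replicate number. The Slc2a3 to Slc2a1 ratio averages 0.67 in LDHi and 0.11 in control, and the Eno3 to Eno1 ratio -2.81 in LDHi and -1.05 in control.

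The hexokinases, which trap glucose as glucose 6-phosphate, had 0 of 3 called in any comparison by edgeR, without or with the block, with 0 below 0.05 before adjustment without the block and 0 called by DESeq2. Hkdc1 was called higher by DESeq2 with the block in LDHi+lactate against control (adjusted p = 0.00693). Hk1 had 95.7, 110, 147 and 121 CPM in LDHi+lactate, 107, 103, 147 and 132 CPM in LDHi and 104, 75.5, 123 and 121 CPM in control. Hk2, the inducible form, had 99.5, 126, 174 and 199 CPM in LDHi+lactate, 106, 106, 210 and 222 CPM in LDHi and 112, 110, 158 and 162 CPM in control. Both overlapped between all conditions, and Hk2 was higher in replicates 3 and 4 than in replicates 1 and 2 in each. Hkdc1, a less studied family member, ranged from 6.08 to 31.3 CPM over all libraries. The ratio of Hk2 to Hk1 moved by -0.03 on the log2 scale in LDHi against control, less than the spread between libraries (SD 0.37 and 0.19).

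Upper glycolysis was carried by Gpi1 (glucose 6-phosphate isomerase), Aldoa (the main aldolase), Aldoc (the brain-enriched aldolase) and Tpi1 (triose phosphate isomerase), and 0 of the 4 were called in any comparison by edgeR, without or with the block, with 0 below 0.05 before adjustment and 0 called by DESeq2. Gpi1 averaged 442 ± 47.0, 453 ± 72.9 and 404 ± 21.7 CPM in LDHi+lactate, LDHi and control, and Tpi1 753 ± 95.2, 795 ± 106 and 792 ± 22.8 CPM. Aldoa had 961, 1450, 1560 and 1230 CPM in LDHi+lactate, 923, 1130, 1700 and 1340 CPM in LDHi and 1130, 1190, 1200 and 997 CPM in control. Aldoc had 12.2, 16.6, 23.7 and 18.6 CPM in LDHi+lactate, 13.2, 12.6, 19.0 and 22.8 CPM in LDHi and 20.5, 17.1, 21.5 and 21.3 CPM in control. Both overlapped between all conditions. The ratio of Aldoc to Aldoa was lower in LDHi than in control in all 4 replicate numbers, by -0.43 on the log2 scale (two-sided exact permutation p = 0.0571, adjusted p = 0.294). In these 4 genes the SD over LDHi libraries was larger than that over control libraries.

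In lower glycolysis only the 2 enolases, of 11 genes, were called by edgeR without or with the block. Pkm, the pyruvate kinase that makes the final ATP of the pathway, averaged 2160 ± 277 CPM in LDHi+lactate, 2240 ± 419 in LDHi and 1920 ± 126 in control, with a log2 fold change of 0.22 ± 0.13 in LDHi against control (edgeR adjusted p = 0.467 without the block and 0.0642 with it, and 0.0444 in DESeq2 with the block). Its liver and red cell counterpart Pklr had 258 counts over 12 libraries and 0.116 to 0.918 CPM. Pgk1 (phosphoglycerate kinase) averaged 63.9 ± 14.1, 63.3 ± 16.2 and 67.3 ± 6.31 CPM in LDHi+lactate, LDHi and control, and Pgam1 (phosphoglycerate mutase) 23.3 ± 5.63, 23.2 ± 6.46 and 20.1 ± 2.16 CPM. The muscle form Pgam2 averaged 4.02 ± 0.623, 3.61 ± 0.660 and 2.79 ± 1.33 CPM, and Bpgm, which makes 2,3-bisphosphoglycerate, 41.8 ± 6.03, 42.4 ± 7.39 and 42.4 ± 7.29 CPM. Gapdhs, the sperm form of glyceraldehyde phosphate dehydrogenase, had 101 counts in all, too few for a ratio.

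Gapdh itself had 3254 counts over 12 libraries, 4.65 to 11.7 CPM. Of its windows of 50 bases, 82.5% occur in other genes (222 of them), and the gene that shares most is a processed pseudogene. Pgk1 shared 68.0% of its windows, Pgam1 41.5%, Pkm 34.4% and Gpi1 25.3%, while Slc2a4 and Pgd shared 0.0%. How reads with several alignments were handled was not found in the sources used, and the levels of these genes carry that limit.

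Levels can be set against each other only per length, and the length used decides some places. Per kilobase of all annotated exons, control organoids averaged 387 ± 32.1 CPM of Aldoa, 384 ± 25.2 of Pkm, 288 ± 8.26 of Tpi1 and 216 ± 19.1 of Slc2a1. Aldoa and Pkm did not differ beyond their spread. Per kilobase of windows found in no other gene, the order was Pkm (1230 ± 80.5), Aldoa (896 ± 74.1), Tpi1 (550 ± 15.8) and Eno1 (379 ± 44.2), with Slc2a1 (240 ± 21.2) and Slc2a3 (214 ± 52.2) next and not apart beyond their spread. At the other end, Fbp1, Pklr and Gapdhs were below 1 CPM per kilobase in the mean of each condition with either length.

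The enolases show how much this choice matters. Per length of exon, Eno3 made 43.4% ± 4.86 of enolase reads in LDHi+lactate, 29.4% ± 1.14 in LDHi and 56.8% ± 5.44 in control. Per window found in no other gene, the shares were 8.86% ± 1.60, 4.88% ± 0.244 and 14.8% ± 2.99. The order of the conditions was the same, and LDHi libraries were below all others with either length, but whether Eno1 or Eno3 led in control organoids turned on the length. Per longest transcript, Eno1 made 58.4% ± 5.81 and Eno3 36.7% ± 5.28 in control. Eno1 had 5379 exon bases, a principal transcript of 2027 bases and 550 windows found in no other gene.

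**Figure D4:**
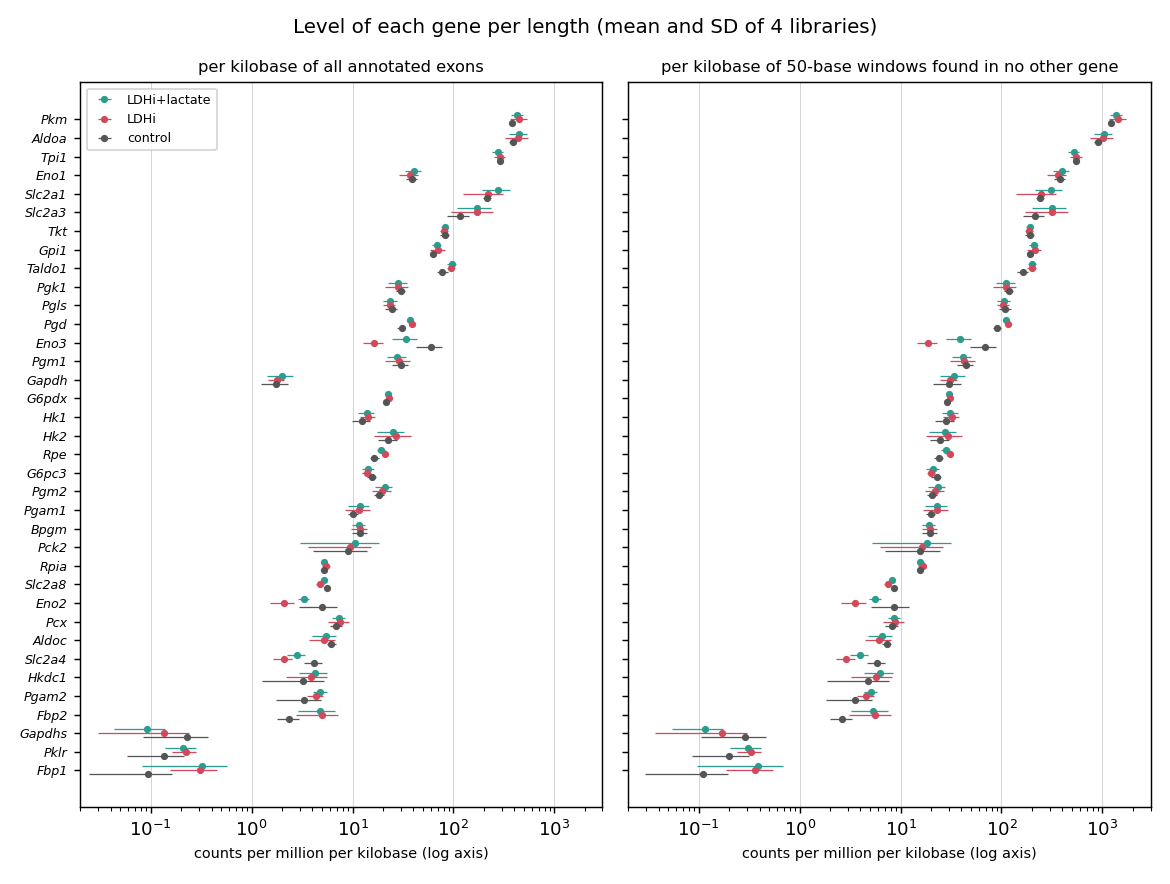
CPM per kilobase (log x axis, mean and SD of 4 libraries) of the 36 genes per length of all annotated exons (left) and per length of windows of 50 bases of the principal transcript found in no other gene (right), in LDHi+lactate, LDHi and control. Eno1 moves to 379 in control organoids on the right, against 38.7 on the left, and Gapdh to 30.2, against 1.76.

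In LDHi against control, 1 of 36 members rose in edgeR without the block and 3 with it, beside 0.909% and 9.85% of all genes. These members were of the pentose phosphate pathway, whose other genes were not called. Pgd (chr4:149149991-149166771, minus strand), which turns 6-phosphogluconate into ribulose 5-phosphate, had 244, 248, 237 and 224 CPM in LDHi+lactate, 249, 269, 255 and 238 CPM in LDHi and 215, 210, 180 and 185 CPM in control. All LDHi+lactate and all LDHi libraries were above all control libraries. The log2 fold change in LDHi against control was 0.35 ± 0.08, a fold of 1.28, with an adjusted p of 0.0333 in edgeR, 0.00109 with the block and 0.00198 in DESeq2, and 0.28 and 0.42 within the sets. Without the block, leaving out LDHi+lactate replicate 1, any LDHi replicate, or 1 of control replicates 1, 3 and 4 ended the call (0.0557 to 0.116). With the block it held without any 1 replicate number (edgeR adjusted p 0.00582 to 0.0148).

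With lactate, Pgd was close to its level in LDHi. Its log2 fold change was -0.08 ± 0.08 in LDHi+lactate against LDHi (edgeR adjusted p = 1.0, 0.595 with the block) and 0.27 ± 0.08 in LDHi+lactate against control (adjusted p = 0.326 without the block and 0.0143 with it). The blocked call was lost without replicate 1 (0.0527), 3 (0.0585) or 4 (0.0904).

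Rpe and Taldo1, of the non-oxidative branch, rose in the edgeR fit with the block and did not pass without it. Rpe (chr1:66700831-66719805, plus strand), ribulose 5-phosphate epimerase, had 60.6, 67.7, 57.0 and 54.4 CPM in LDHi+lactate, 61.4, 69.0, 70.9 and 61.2 CPM in LDHi and 50.6, 58.8, 46.6 and 49.9 CPM in control. Every LDHi library was above every control library, with a log2 fold change of 0.35 ± 0.10 and an edgeR adjusted p of 0.0847 without the block, 0.00514 with it and 0.0342 in DESeq2. The blocked call held without any 1 replicate number (edgeR adjusted p 0.0151 to 0.028). Rpe shares 19.3% of its windows with Kansl1l, which overlaps it.

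Taldo1 (chr7:141392199-141402968, plus strand), transaldolase, had 196, 233, 219 and 186 CPM in LDHi+lactate, 201, 231, 209 and 183 CPM in LDHi and 171, 198, 152 and 155 CPM in control. The ranges overlapped, but LDHi was above control in all 4 replicate numbers, as was LDHi+lactate. The log2 fold change in LDHi against control was 0.28 ± 0.11 (adjusted p = 0.195 without the block and 0.00562 with it), and in LDHi+lactate against control 0.30 ± 0.11 (0.410 and 0.0145 with the block, lost without replicate 1 at 0.0577 or 4 at 0.0753). The blocked call in LDHi against control held without any 1 replicate number (edgeR adjusted p 0.0158 to 0.0356). A processed pseudogene holds 12.4% of the windows of Taldo1.

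The other pentose phosphate genes were not called. G6pdx, the entry enzyme glucose 6-phosphate dehydrogenase, averaged 69.8 ± 2.87 CPM in LDHi+lactate, 71.2 ± 4.23 in LDHi and 66.6 ± 3.67 in control, and was higher in LDHi than in control in all 4 replicate numbers (log2 fold change 0.10 ± 0.08, edgeR adjusted p = 0.618). Pgls (6-phosphogluconolactonase) averaged 89.3 ± 13.9, 88.2 ± 12.2 and 91.8 ± 13.1 CPM. Rpia (ribose 5-phosphate isomerase) averaged 28.0 ± 2.15, 29.3 ± 2.62 and 27.9 ± 1.08 CPM, and Tkt (transketolase) 602 ± 44.3, 592 ± 52.7 and 607 ± 59.5 CPM. Over the 7 genes of the pathway, 1 was called without the block and 3 with it in LDHi against control, all higher, beside 0.909% and 9.85% of all genes.

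Gluconeogenesis had 0 of 5 members called in LDHi against control by edgeR, without or with the block, with 1 (Fbp2) below 0.05 before adjustment without the block and 0 called by DESeq2. DESeq2 with the block called Fbp2 (adjusted p = 0.00725) and Fbp1 (0.0467) higher. Fbp2, the muscle fructose bisphosphatase, had 6.90, 11, 4.94 and 5.17 CPM in LDHi+lactate, 3.07, 7.36, 11 and 7.79 CPM in LDHi and 3.56, 4.05, 3.99 and 2.21 CPM in control. All LDHi+lactate libraries were above all control libraries, and LDHi overlapped control through replicate 1. Its log2 fold change in LDHi against control was 1.07 ± 0.37 (edgeR adjusted p = 0.156, 0.0572 with the block, 0.0504 in DESeq2). Fbp1, the liver form, had 175 counts over 12 libraries and 0 in control replicate 4, and its log2 fold change of 1.64 ± 0.77 did not pass (0.312). G6pc3, the widespread glucose 6-phosphatase, averaged 31.8 ± 4.49, 30.7 ± 2.99 and 34.6 ± 3.86 CPM, and Pcx (pyruvate carboxylase) 34.8 ± 4.87, 35.5 ± 8.35 and 32.9 ± 4.62 CPM. The phosphoglucomutases, which link glucose 6-phosphate to glycogen, were not called: Pgm1 averaged 81.4 ± 18.1, 84.7 ± 23.4 and 88.1 ± 16.2 CPM and Pgm2 54.0 ± 10.6, 50.9 ± 10.9 and 47.3 ± 5.40 CPM.

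Pck2, the mitochondrial phosphoenolpyruvate carboxykinase, differed more between the sets than between the conditions. It had 119, 147, 32.3 and 32.9 CPM in LDHi+lactate, 109, 115, 34.2 and 34.0 CPM in LDHi and 98.1, 109, 35.8 and 38.7 CPM in control. Replicates 3 and 4 were below replicates 1 and 2 in every condition, with a log2 fold change of -1.74 ± 0.09 (edgeR with set as a term, adjusted p = 7.02e-07). LDHi against control gave 0.05 ± 0.60 (0.987) in edgeR without a set or block term, where the SE takes in the difference between sets. From control through LDHi to LDHi+lactate, its values went up in replicates 1 and 2 and down in replicates 3 and 4. Between these sets 9 members were higher in replicates 3 and 4 (13.7% of all genes) and 6 lower (14.3% of all genes). Hk2 (0.76), Slc2a1 (0.56), Pgm1 (0.52), Aldoc (0.48) and Pgk1 (0.45) had the largest log2 fold changes among those higher, and Pgam2 (-0.65), Bpgm (-0.36) and Pgls (-0.35) followed Pck2 among those lower. The sets differ in depth and in labels at once, and these and any other differences between the sets cannot be told apart.

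Fold changes of members that were not called often differed in sign between the sets in the 2 comparisons that include LDHi. In LDHi against control, 15 of 35 members fitted in both sets had a negative log2 fold change in replicates 1 and 2 and a positive one in replicates 3 and 4 (42.9%, against 17.0% of 17079 genes). Among them were Slc2a1 (-0.58 and 0.42), Eno1 (-0.36 and 0.19), Pgk1 (-0.34 and 0.09), Aldoa (-0.17 and 0.45), Tpi1 (-0.15 and 0.12), Pgam1 (-0.11 and 0.44) and Gpi1 (-0.07 and 0.36), the others being Slc2a3, Hk2, Gapdh, Pgm1, Pgm2, Rpia, Tkt and Pcx. In LDHi against control the interaction of set and condition was called for 0 of the 36 members and 0 of all genes tested (edgeR, smallest adjusted p among members 0.89), with 5 members and 694 genes below 0.05 before adjustment. Between LDHi+lactate and LDHi, 18 of the 35 were positive in replicates 1 and 2 and negative in replicates 3 and 4, as were 4015 of the 17079 genes, and the interaction was again called for 0 genes (239 genes and 1 member below 0.05 before adjustment). The reverse pattern in LDHi against control held for 2 members and 3356 genes, and in LDHi+lactate against LDHi for 3 members and 3912 genes. In LDHi+lactate against control, 6 members and 2589 genes went from negative to positive, and 2 members and 2749 genes from positive to negative. The genes share libraries, and both comparisons with LDHi use the same LDHi libraries, so these signs are not independent. In LDHi against control the called members kept 1 sign in both sets. A call from a fit over both sets favours such genes, so this adds no separate evidence.

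**Figure D5:**
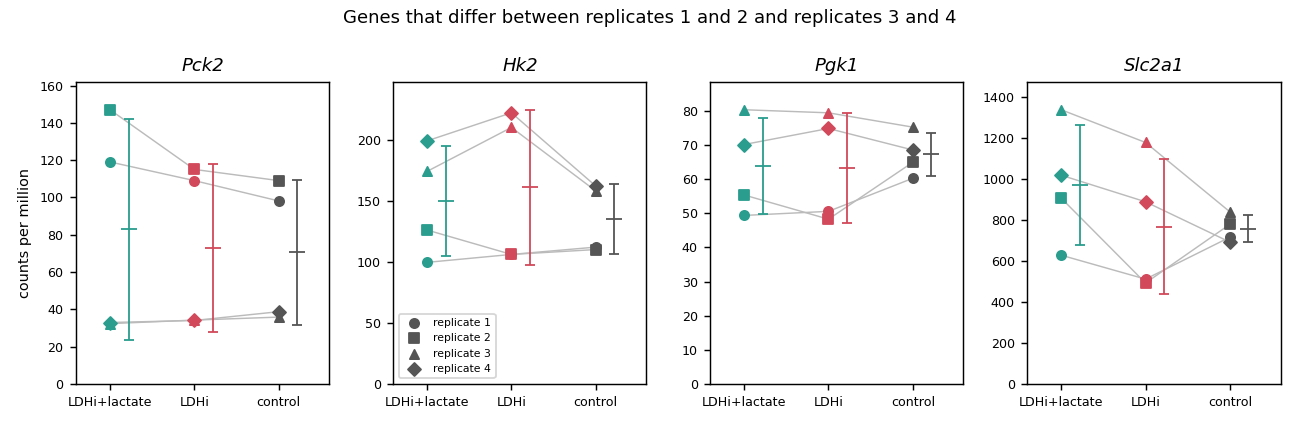
CPM (y axis, from 0) of Pck2, Hk2, Pgk1 and Slc2a1 in each library of LDHi+lactate, LDHi and control, with lines joining the same replicate number and bars for mean and SD. Pck2 is between 98.1 and 147 CPM in replicates 1 and 2 and between 32.3 and 38.7 CPM in replicates 3 and 4, and LDHi lies below control for Slc2a1 in replicates 1 and 2 and above it in replicates 3 and 4.

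Few members differed between LDHi+lactate and LDHi. In LDHi+lactate against LDHi, 31 of 36 members were within 0.25 of no change on the log2 scale, and their median was 0.02 (-0.01 over all genes). Without the block 0 members and 0.0% of all genes were called in either direction by edgeR, and Eno3 was called in DESeq2. Before adjustment 2 members, Eno2 and Eno3, were below 0.05 (5.56%, against 3.4% of all genes). With the block Eno3 was the 1 member higher (0.57% of all genes) and 0 were lower (0.0677% of all genes), and DESeq2 with the block added Eno2 (adjusted p = 0.00112) and Slc2a4 (0.0319). In LDHi+lactate against control, again 0 members and 0.0% of genes were called without the block, and 0 members in DESeq2. Before adjustment 7 members were below 0.05 in edgeR (19.4%, against 9.33% of all genes). With the block Pgd and Taldo1 were higher (4.18% of all genes) and Slc2a4 and Eno3 lower (3.87% of all genes). DESeq2 with the block added Slc2a3 (adjusted p = 0.0143), Hkdc1 (0.00693), Fbp2 (0.0168) and Rpe (0.0465) higher and Eno2 (0.00862) lower. These comparisons share the LDHi or the control libraries with the first.

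Other genes of glucose use, outside the 36, moved in part. Of 13 tested genes of glycogen and polyol metabolism in LDHi against control, Gyg, the glycogenin that primes glycogen, fell (32.2 ± 6.92 CPM in LDHi and 67.2 ± 8.99 in control, log2 fold change -1.06, edgeR adjusted p = 0.0122). With the block 4 fell, Gyg, Pygm (muscle glycogen phosphorylase), Epm2a (laforin) and Stbd1 (a glycogen-binding protein), and 0 rose, beside 10.1% lower and 9.85% higher of all genes. DESeq2 called Gyg and Pygm. Their list median was -0.24 without the block. In LDHi+lactate against LDHi, Gyg was higher in edgeR with the block (log2 fold change 0.52, adjusted p = 0.0352). It was not called there without the block or by DESeq2 without a block. Of 21 other transporters and enzymes tested, 0 were called by edgeR without the block (3 below 0.05 before adjustment, 0 by DESeq2), and with it Slc2a6, Slc2a12 and H6pd fell and Pgp rose. Of 14 regulators, 0 were called without it (2 below 0.05 before adjustment, Tigar by DESeq2), and with it Epas1, Mycn, Tigar and Usp28 rose and Myc fell. The liver genes G6pc, G6pc2 and Pck1 held 1, 21 and 41 counts over 12 libraries and were not tested.

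Markers of cell types moved beside the members. Eye field and retina markers summed to 763 to 1080 CPM in LDHi+lactate, 599 to 667 in LDHi and 849 to 1510 in control, with 4 of 8 (Rax, Six3, Six6, Mitf) called lower in LDHi against control and 8 of 8 with the block. Pluripotent cell markers summed to 514 to 1040, 625 to 1120 and 251 to 505 CPM in the same order, with 5 of 8 called higher and 8 of 8 with the block. Mesenchyme markers summed to 135 to 178, 111 to 174 and 185 to 702 CPM, with 4 of 8 called lower and 6 of 8 with the block. Muscle markers summed to 53.1 to 109, 58.2 to 116 and 21.2 to 40.0 CPM, of which Mylpf averaged 63.7, 72.0 and 22.9 CPM. Mylpf was called higher, with the block Ttn was also higher and Actc1 lower (log2 fold change -2.58, adjusted p = 0.0031), and DESeq2 called Mylpf and Actc1. Actc1 averaged 0.436 CPM in LDHi+lactate, 0.187 in LDHi and 1.22 in control. Of 8 listed, 6 were tested, with the defining Myod1 and Myog below 1 CPM in every library. Neuron markers summed to 148 to 556, 212 to 822 and 148 to 858 CPM, with 0 of 8 called by edgeR without the block (1 below 0.05 before adjustment) and Syt1 lower with the block and by DESeq2. Of the 8, 6 had a positive and 2 a negative log2 fold change in LDHi against control without the block (median 0.3). Germ line markers summed to 38.6 to 67.3, 40.4 to 64.0 and 19.0 to 39.2 CPM, with Dppa3 called higher and Dazl with it under the block. Endoderm and liver markers (80.5 to 184, 87.1 to 198 and 45.6 to 195 CPM) and erythroid markers (3.26 to 7.72, 3.04 to 3.65 and 3.13 to 4.49 CPM) had 0 called by edgeR without the block, with 0 and 2 genes below 0.05 before adjustment and 0 and 1 (Epor) called by DESeq2. With the block Sox17 and Foxa2 were higher and Epor lower. No listed marker was at 0 in all libraries, and the part of these shifts in the results of Eno2, Eno3, Slc2a4 and the pentose phosphate genes was not tested.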

How the data were processed

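Libraries were made from whole organoids and sequenced as single reads of 50 bases. The authors deposited raw counts per Ensembl gene, with no normalization. Per the labels, cutadapt 1.13, STAR, HTSeq 0.6.1p1 and DESeq2 1.14.1 were used on mm10. Not given in the sources used here are the STAR version, annotation release, strand setting and handling of reads with several alignments. HTSeq by default leaves out reads with several alignments, and without strand, reads of overlapping genes on opposite strands cannot be told apart (19 members overlap another gene).

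Counts were tested with edgeR 4.0.16 in R 4.3.3 (TMM, filterByExpr with the condition, 12 libraries in 1 quasi-likelihood fit, no block), and p-values were adjusted by Benjamini-Hochberg over 17721 genes and called under 0.05. Alternatives were DESeq2 1.42.0, other scalings and filters, fits of only the 2 groups compared, with the set as a term, within each set, with 1 library left out, and with the replicate number as a block. The number pairs libraries by the data: deviations from the condition means correlated at 0.329 to 0.634 across genes for the same number in all 12 pairs, and at -0.22 to 0.197 for different numbers within a set. The pairing is not stated by the labels. No 2 libraries of a condition were repeats by a chi-square over genes.

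Isozyme ratios are log2 of counts plus 0.5, for pairs with a mean of at least 10 counts per library (12 of 13). They were compared with two-sided exact permutation tests (scipy 1.17.1, smallest p 0.0286). Symbols, positions and lengths came from GENCODE vM21 on GRCm38, the build of mm10, and the gene ID on chromosome 7 with 506114 counts was taken for Aldoa. Windows of 50 bases were taken from the principal transcript of each member and matched exactly on both strands to all transcripts. Sequences are from GENCODE and RefSeq. The fit was tested on simulated counts. Members, lists and tests were chosen with earlier results of these data known. Genes described by library are those called by edgeR without or with the block and both genes of the ratios described, while genes of the other ratios are given by mean and SD or by range. Fbp2 and Pck2 were added after their values were seen. Counts set the precision, which is lowest for genes under 300 counts in all (Gapdhs, Fbp1, Pklr).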

Additional observations from a re-analysis of the deposited data

Results flagged for a closer look

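In each condition, the highest or lowest of the 4 libraries was compared with its nearest neighbour for the 36 genes. Of 108 such groups, 5 (4.63%) had 1 library set apart by Dixon's gap over range, and chance alone sets apart about 1 in 20. Slc2a8 was lowest in control replicate 4, at 16.4 CPM, with 18.0 to 18.3 CPM in the other control libraries. Gapdh was highest in LDHi replicate 4, at 9.41 CPM, with 6.58 to 6.78 CPM in the others. Bpgm was highest in LDHi+lactate replicate 1, at 50.8 CPM, with 38.3 to 39.5 CPM in the others, and the other conditions also had over 50 CPM in replicate 1 (50.2 in LDHi and 51.6 in control). Pkm was highest in control replicate 3, at 2110 CPM, with 1850 to 1860 CPM in the others. Pgm1 was lowest in control replicate 2, at 64.0 CPM, with 94.0 to 98.5 CPM in the others. None of these genes was called between conditions by edgeR, without or with the block.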

How the results depend on the processing

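In LDHi against control, 1 member was higher and 3 were lower in the edgeR fit without a block. The count higher was 3 with the replicate block, alone or with RLE size factors or library totals, 2 with the set as a term or by DESeq2, 7 by DESeq2 with the block, and 0 with no filter, with only the 2 groups compared, in either set alone or at an absolute log2 fold change of at least 1. Leaving out 1 library gave 0 to 2 higher and 1 to 3 lower, and leaving out 1 replicate number from the blocked fit gave 3 to 5 higher and 3 lower. The count lower was 1 with only the 2 groups compared and 0 in replicates 1 and 2 or 3 and 4 alone. In LDHi+lactate against LDHi, 0 were higher without a block, 1 with the block under each of the 3 scalings and by DESeq2, 3 by DESeq2 with the block, and 0 to 1 on leaving out 1 replicate number from the blocked fit. In LDHi+lactate against control, 0 were called without a block, the block gave 2 higher and 2 lower under each scaling, DESeq2 with the block 6 higher and 3 lower, and leaving out 1 number 0 to 3 higher and 0 to 1 lower. With fewer samples the tests have less to go on, and the cause of the other differences was not tested. Shares of all genes called stand above only for the edgeR fits without and with the block. Counts of members from the other fits therefore cannot be set against all genes. No member called in either of 2 fits compared changed sign between them. Of members not called, 0 to 11 had another sign than without the block in LDHi against control, depending on the alternative, with 3 (Slc2a1, Tpi1, Pck2) under the replicate block and 11 in replicates 1 and 2 alone. The number was 0 to 12 in LDHi+lactate against LDHi and 0 to 6 in LDHi+lactate against control. The blocked fits with another scaling, another tool or a number left out were added after seeing the data. With 4 pairs a ratio cannot pass an exact test (smallest p 0.125). Depth limits Gapdhs, Fbp1 and Pklr.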
